A study of Mus musculus with 9 samples.

Results

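Thyroid hormone acts on skeletal muscle through a small set of genes, and 9 of them were followed here through adult life and ageing in mouse gastrocnemius, the large calf muscle. They are the receptor genes Thra and Thrb, the retinoid X receptor genes Rxra, Rxrb and Rxrg, the deiodinase gene Dio2, the transporter gene Slc16a10, the corepressor gene Ncor1 and the coactivator gene Ncoa1. The genes were chosen by name, and all 9 were found among the 17314 genes of the deposited table. RNA sequencing had been done on 9 muscles, 3 each at 6, 15 and 21 months of age, which the sample titles call youth, mid and old. The design text says that each age group consisted of 3 mice. The sources used here give no strain, genotype or sex, and no treatment is named, so the groups differ by age as far as the labels say. The series title ties thyroid hormone receptor alpha to the ageing of muscle, which puts Thra at the centre of the comparison.

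In outline, hormone enters the muscle fibre through membrane transporters, of which Slc16a10 is one. The deiodinase encoded by Dio2 converts the prohormone thyroxine to the active hormone triiodothyronine inside the cell. The hormone then binds the nuclear receptors, which sit on DNA as heterodimers with retinoid X receptors. Without hormone the receptors recruit corepressors such as Ncor1, and with hormone they recruit coactivators such as Ncoa1. In muscle this system is known for setting contraction speed, fibre type and energy use. Thra is the receptor gene usually found to predominate in muscle, while Thrb is best known from liver and pituitary.

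Levels are given as CPM, a count scaled to the total of its library after that total was corrected by a TMM factor between 0.923 and 1.05. Total counts per library ranged from 15354396 to 17317856, all 9 genes passed the expression filter, and their estimated counts ran from 29 for Dio2 to 3431 for Rxra. The muscle origin was checked with 10 fast fibre markers, whose summed level was 107992 CPM or more in each library. Slow fibre markers, 12 genes in all, differed widely between libraries. Their summed level was 112 CPM in mouse 2 at 6 months, 1748 CPM in mouse 1 at 15 months and 1543 CPM in mouse 3 at 21 months, and between 253 and 739 CPM in the other 6 libraries. These 3 libraries also lay farthest out on the first principal component, and results are given without them where that matters.

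Sequences were read for Thra, where they bear on how its counts can be read, and for Dio2 as a description of the gene. Thra (Entrez ID 21833) lies on chromosome 11, 98740776 to 98769006, plus strand, in mm10, and gives rise to a hormone-binding form of the receptor, alpha 1, and to alpha 2, a form that does not bind hormone. In the GENCODE annotation the transcript Thra-202 has 1230 coding bases and ends at 98765111, while Thra-201 has 1476 coding bases and runs on to 98769006. The last exon of Thra-201, exon 10 of 10, overlaps the last exon of Nr1d1, exon 8 of 8 on the minus strand, by 263 bases, and Thra-202 does not overlap Nr1d1. Nr1d1 (Entrez ID 217166) encodes the clock repressor REV-ERB alpha. The 197 bases below, chr11:98768223-98768419 and written on the Thra strand, code for protein in both genes. Reads from this stretch fit either gene unless their strand is known. The whole run is shared, so no part of it is set in capitals.

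Thra and Nr1d1 shared coding stretch: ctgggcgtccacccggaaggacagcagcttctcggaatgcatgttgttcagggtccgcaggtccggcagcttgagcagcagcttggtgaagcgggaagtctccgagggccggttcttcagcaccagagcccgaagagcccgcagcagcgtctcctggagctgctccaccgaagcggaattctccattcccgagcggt

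The deposited counts showed that such reads had been divided. The estimated count of Thra was not a whole number in any of the 9 libraries, within a tolerance of 0.005, and nor was that of Nr1d1, yet their sum was whole in all 9. In mouse 1 at 6 months, for example, 1433.19 for Thra and 4968.81 for Nr1d1 added up to 6402. How many reads were divided in this way is not visible in the table. Of the other 8 genes, 7 had whole counts in each library, and Thrb had a fractional count in 2 of 9. A separate value for alpha 1 and alpha 2 cannot be had from counts per gene.

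Dio2 (Entrez ID 13371) lies on chromosome 12, 90724552 to 90739038, minus strand, and its enzyme is a selenoprotein, so that TGA codons inside the reading frame are read as selenocysteine. GENCODE marks such codons at positions 130 and 263 of 266, shown here from the annotated transcript, minus strand, with TGA in capitals.

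Dio2 codon 130, chr12:90729796-90729852: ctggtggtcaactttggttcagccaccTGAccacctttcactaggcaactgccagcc

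Dio2 codon 263, chr12:90729415-90729453: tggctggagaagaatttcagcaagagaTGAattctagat

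The 250 bases before the start of Dio2, from RefSeq on GRCm38.p6, hold TGACGTCA, the full cyclic AMP response element, and Dio2 is a textbook cyclic AMP-inducible gene. The motif begins 95 bases before the start and is in capitals. Searched on both strands, it was found in 1.55% of 32851 promoter windows of 250 bases. AGGTCA, the core of a receptor binding element, was not found in the Dio2 window and was found in 14.0% of all windows. Among the members, a window of Thrb, of Rxra and of Rxrg held it. These are matches of letters and no evidence of binding.

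Dio2, chr12:90739039-90739288, minus strand: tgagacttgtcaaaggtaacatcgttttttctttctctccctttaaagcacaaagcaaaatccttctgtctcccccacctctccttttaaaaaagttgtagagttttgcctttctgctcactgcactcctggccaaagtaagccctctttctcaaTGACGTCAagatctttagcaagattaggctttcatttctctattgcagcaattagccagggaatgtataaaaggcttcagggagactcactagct

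Levels of different genes were compared as CPM per kb of annotated exon. Rxrg and Rxra were the most abundant of the 9, with 37.3 ± 3.27 and 34.1 ± 4.52 CPM per kb (SD over 9 libraries), and the order between them held in 7 of 9 libraries, so they did not differ beyond their spread. Slc16a10 followed with 21.4 ± 4.84 and Thra with 17.8 ± 2.68 CPM per kb, and both of these overlapped with the gene above them, although Rxra exceeded Slc16a10 in 9 of 9 libraries. Ncor1 (10.8 ± 0.648), Rxrb (10.5 ± 1.36) and Ncoa1 (7.78 ± 1.56 CPM per kb) formed the next group, in which the ranges of Ncor1 and Rxrb overlapped, as did those of Rxrb and Ncoa1. Thrb stood at 4.31 ± 0.332 CPM per kb, below Ncoa1 in all 9 libraries without overlap. Dio2 was lowest, at 0.641 ± 0.284 CPM per kb. Thra and Thrb thus differed from each other by more than the spread between mice, with every library of Thra above every library of Thrb. This per-length scale takes all annotated exons of a gene, and the Thra count includes reads divided with Nr1d1.

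**Figure D1:**
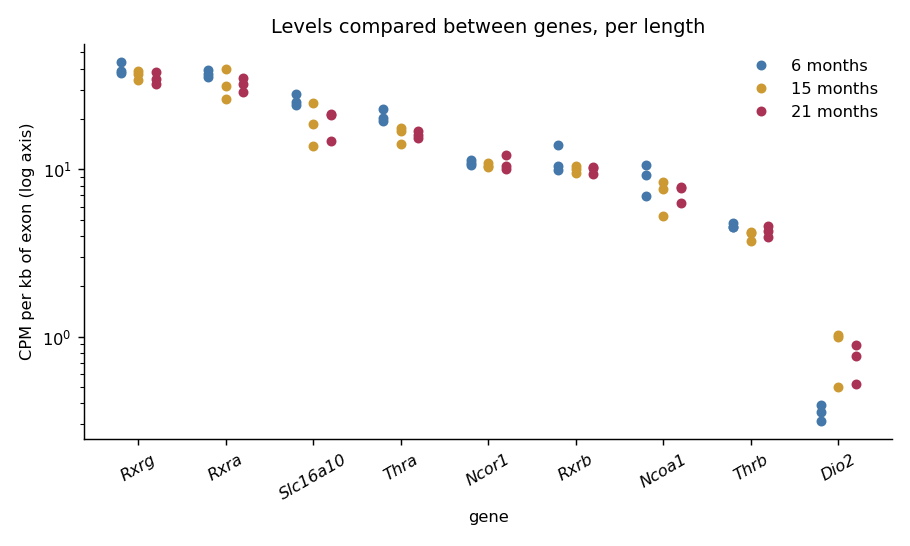
Level of each of the 9 genes in each library, as CPM per kb of exon on a log axis, with genes ordered by their mean and points coloured by age. Rxrg and Rxra are at the top near 35 CPM per kb, and Dio2 is at the bottom, where the 3 libraries at 6 months lie below the other 6.

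Thra, the receptor gene named in the series title, stood at 90.1, 106 and 93.3 CPM in mice 1 to 3 at 6 months, at 78.4, 65.5 and 82.0 CPM at 15 months, and at 78.4, 71.4 and 74.5 CPM at 21 months. All 6 older libraries lay below all 3 at 6 months, a pattern seen in 3.6% of the 13044 genes tested, and the 15-month and 21-month groups overlapped. The log2 fold change was -0.37 (SE 0.11) for 21 against 6 months and -0.36 (SE 0.11) for 15 against 6 months, which is a level of 0.776 and 0.781 times that at 6 months. In edgeR's quasi-likelihood test over all 3 ages the unadjusted p was 0.0100 and the adjusted p was 0.392, so Thra did not pass the threshold of 0.05. Without the 3 libraries that stood apart in slow fibre markers the log2 fold changes were -0.29 (SE 0.13) and -0.31 (SE 0.13). In bulk muscle, fewer cells of a type and less RNA per cell cannot be told apart.

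Nr1d1, which shares reads with Thra, had a different course. It stood at 312, 338 and 395 CPM at 6 months, at 208, 171 and 196 CPM at 15 months, and at 335, 296 and 216 CPM at 21 months. The 15-month libraries lay below all others, and the 6-month and 21-month libraries overlapped. Its log2 fold change was -0.86 (SE 0.16) at 15 against 6 months, with an adjusted p of 0.194 in edgeR and 0.000527 in DESeq2. At 21 against 6 months it was -0.30 (SE 0.16). Thra took 27.3 to 29.4% of the summed counts of both genes at 15 months, against 19.1 to 23.8% at 6 months and 19.0 to 25.7% at 21 months. What the division of shared reads adds to the Thra values was not tested.

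Thrb (Entrez ID 21834, chromosome 14, 17659225 to 18040097) encodes receptor beta and varied less. It stood at 33.7, 35.4 and 33.4 CPM at 6 months, at 27.8, 31.4 and 30.8 CPM at 15 months, and at 33.8, 31.8 and 29.0 CPM at 21 months. The 15-month group lay below the 6-month group without overlap, as 7.14% of tested genes did, while the 21-month group overlapped both. The log2 fold changes were -0.19 (SE 0.09) for 15 months and -0.12 (SE 0.09) for 21 months, both against 6 months, with adjusted p of 0.522 and 0.699 in edgeR. Without the 3 libraries that stood apart they were -0.11 (SE 0.10) and -0.03 (SE 0.10), and the 21-month value was -0.06 without mouse 3 at 21 months alone.

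The ratio of Thra to Thrb counts within a library does not depend on library scaling. It was 2.68, 2.99 and 2.79 at 6 months, 2.82, 2.09 and 2.67 at 15 months, and 2.32, 2.24 and 2.57 at 21 months. The 3 libraries at 21 months lay below the 3 at 6 months, and the 15-month libraries overlapped both groups. The mean log2 ratio differed by -0.25 between 21 and 6 months (two-sided exact permutation p = 0.1, the smallest p that 3 against 3 libraries allow). For 15 against 6 months the difference was -0.17 (exact permutation p = 0.4), but -0.04 without mouse 2 and -0.26 without mouse 1 at 15 months. For 21 against 15 months it was -0.08 (exact permutation p = 0.7), but 0.0095 without mouse 1 and -0.21 without mouse 2 at 15 months. Because reads shared with Nr1d1 enter the Thra count, the ratio is subject to the same limit as Thra.

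**Figure D2:**
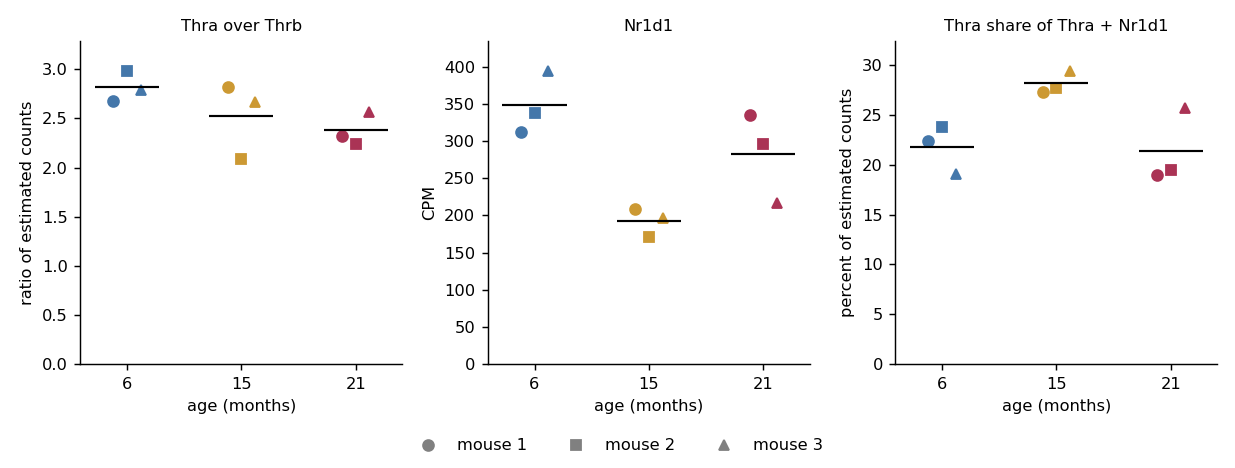
Values by age for the 3 libraries of each age, with black bars for means: the ratio of Thra to Thrb estimated counts, the level of Nr1d1 in CPM, and the Thra share in percent of the summed Thra and Nr1d1 counts. The ratio at 21 months lies below that at 6 months, and the Thra share is highest at 15 months, where Nr1d1 is lowest.

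The retinoid X receptor genes encode the partners with which the thyroid hormone receptors bind DNA, and all 3 stood slightly lower in older muscle. Rxra (Entrez ID 20181, chromosome 2, 27676445 to 27763319) had 203, 215 and 196 CPM at 6 months, 145, 173 and 216 CPM at 15 months, and 178, 193 and 158 CPM at 21 months. The 21-month group lay below the 6-month group by a narrow margin, and the 15-month group spanned a wider range than both. Its log2 fold changes were -0.21 (SE 0.14) at 21 and -0.20 (SE 0.14) at 15 against 6 months. Without the 3 libraries that stood apart they were -0.10 (SE 0.13) and -0.04 (SE 0.13). The 15-month value ran from -0.36 without mouse 3 to -0.07 without mouse 1 at 15 months, and the 21-month value was -0.14 without mouse 3 at 21 months.

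Rxrg (Entrez ID 20183, chromosome 1, 167598362 to 167639623), the form most typical of muscle and brain, had 88.7, 86.6 and 101 CPM at 6 months, 79.1, 88.6 and 85.3 CPM at 15 months, and 79.3, 87.4 and 74.8 CPM at 21 months. The groups overlapped, and the log2 fold changes were -0.19 (SE 0.10) at 21 and -0.13 (SE 0.10) at 15 against 6 months. Without mouse 3 at 6 months, the highest library, they were -0.12 and -0.05, and without mouse 1 at 15 months the 15-month value was -0.08. Rxrb (Entrez ID 20182, chromosome 17, 34031812 to 34038403), a broadly expressed form, had 41.5, 55.5 and 39.4 CPM at 6 months, 37.9, 39.7 and 41.8 CPM at 15 months, and 41.1, 40.3 and 37.4 CPM at 21 months. Its higher mean at 6 months came from mouse 2. The log2 fold change of Rxrb was -0.20 (SE 0.13) at 21 against 6 months, and it was 0.010 at both older ages without the 3 libraries that stood apart, among which that mouse is.

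Dio2, the enzyme that makes active hormone in the cell, was the member with the largest difference and the single member that stood higher in both older groups. It had 2.07, 1.82 and 2.27 CPM at 6 months, 5.83, 5.98 and 2.91 CPM at 15 months, and 4.45, 3.04 and 5.19 CPM at 21 months. All 6 older libraries lay above all 3 at 6 months, as 3.48% of tested genes did, and the 15-month and 21-month groups overlapped. The log2 fold change was 1.25 (SE 0.31) at 15 and 1.04 (SE 0.31) at 21 against 6 months, that is 2.38 and 2.05 times the level at 6 months. Both log2 fold changes were at least 1 in 0.866% of tested genes.

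The call for Dio2 depended on the tool. In edgeR its adjusted p was 0.250 at 15 and 0.248 at 21 against 6 months. DESeq2 gave an adjusted p of 0.0289 at 15 against 6 months, 0.0910 at 21 against 6 months and 0.0417 across the 3 ages. The size of the difference at 15 months was alike in both tools, with log2 fold changes of 1.25 in edgeR and 1.26 in DESeq2. It passed the threshold in DESeq2 alone. The counts behind these values were low, between 29 and 37 reads per library at 6 months and between 46 and 97 later, so that counting error adds to the spread between mice. Without the 3 libraries that stood apart Dio2 stood at 1.03 (SE 0.38) and 0.78 (SE 0.38) on the log2 scale at 15 and 21 against 6 months.

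Slc16a10 (Entrez ID 72472, chromosome 10, 40033532 to 40142270) encodes MCT10, which carries thyroid hormones and aromatic amino acids. It had 186, 179 and 206 CPM at 6 months, 102, 138 and 183 CPM at 15 months, and 155, 158 and 109 CPM at 21 months. The 21-month group lay below the 6-month group, as 8.31% of tested genes did, while mouse 3 at 15 months fell within the 6-month range. The log2 fold change was -0.44 (SE 0.20) in both comparisons with 6 months, with an unadjusted p of 0.0575 at 21 and 0.0583 at 15 months. Leaving out mouse 1 at 15 months brought the 15-month value to -0.25, leaving out mouse 3 at 15 months brought it to -0.67, and leaving out mouse 3 at 21 months brought the 21-month value to -0.28.

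**Figure D3:**
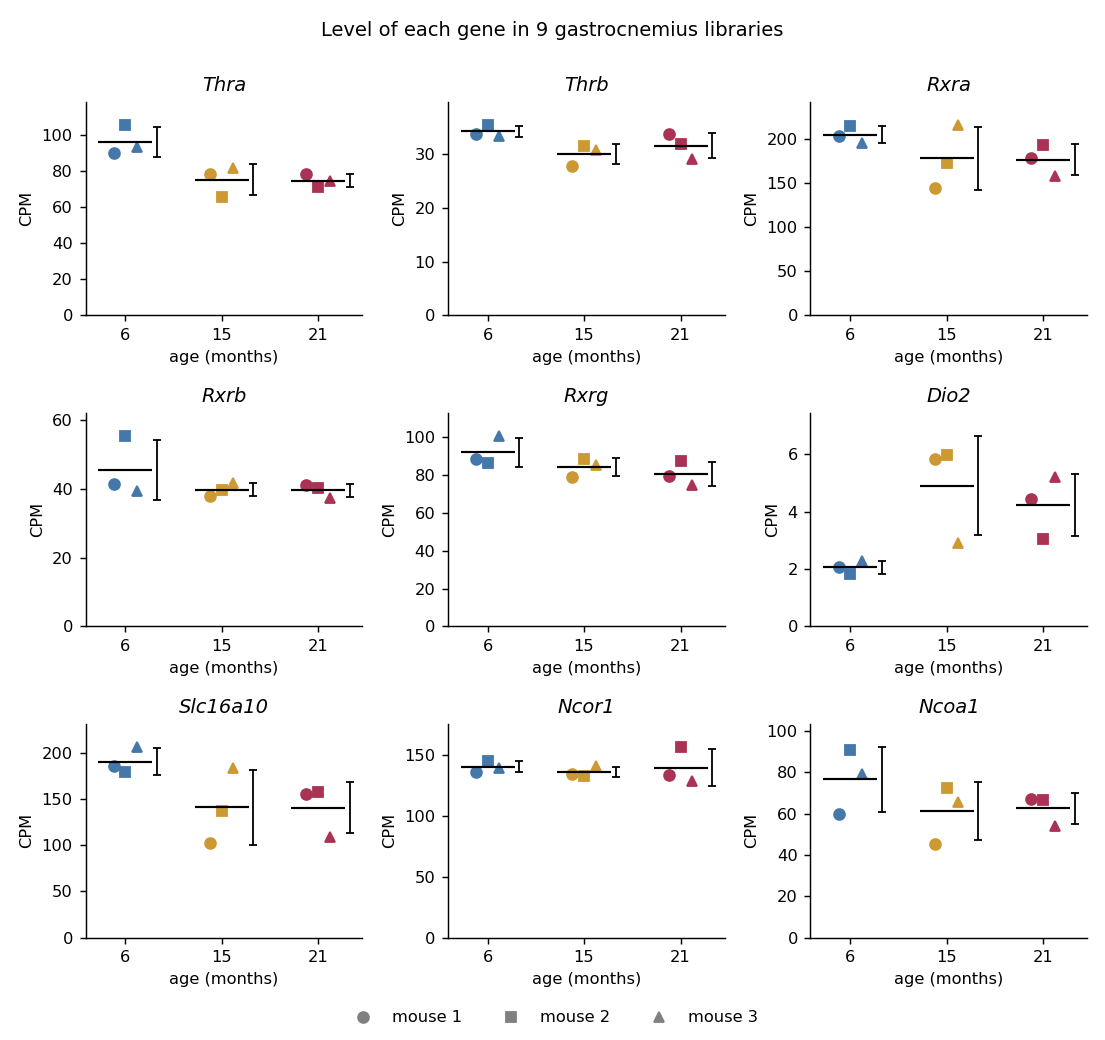
Level of the 9 genes in CPM in each library, by age in months, with 1 panel per gene, symbols for mouse number, a bar for the mean and an error bar for the SD of 3 libraries. Thra is lower and Dio2 higher in all 6 older libraries than at 6 months, and the ranges of Ncor1 overlap at all ages.

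Slc16a10, Rxra and Dio2 were set beside the slow fibre markers in each library. The pair of libraries with the highest summed slow fibre markers, 1748 and 1543 CPM, had the lowest Slc16a10 (102 and 109 CPM), the lowest Rxra (145 and 158 CPM) and, with 5.83 and 5.19 CPM, 2 of the 3 highest Dio2 levels. Low values in this pair were not particular to Slc16a10 and Rxra. The same pair was lowest in Thrb (27.8 and 29.0 CPM), Rxrb (37.9 and 37.4 CPM), Rxrg (79.1 and 74.8 CPM) and Ncoa1 (45.4 and 53.8 CPM). It was not the lowest pair in Thra or Ncor1. The library with the lowest slow fibre sum, 112 CPM, had the lowest Dio2 level, 1.82 CPM. Its Rxra of 215 CPM was near the top, while its Slc16a10 of 179 CPM was the lowest at 6 months and below the 183 CPM of mouse 3 at 15 months, whose sum was 431 CPM. The summed markers ran from 112 to 472 CPM at 6 months, from 431 to 1748 CPM at 15 months and from 351 to 1543 CPM at 21 months, with 0 of the 12 markers at 0 in all libraries and 12 of 12 higher at each older age than at 6 months. None of the 12 passed the threshold in edgeR or DESeq2 in those comparisons, and 6 and 7 had an unadjusted p under 0.05 in edgeR at 21 and 15 months, beside 10.6% and 10.3% of all genes. The fast fibre markers went the other way, with 10 of 10 lower at each older age than at 6 months. At 21 and 15 months 3 and 6 of the slow fibre markers stood higher without overlap, beside 7.81% and 6.64% of all genes. Of the fast fibre markers 4 and 2 stood lower without overlap, beside 8.31% and 7.14%. In each comparison 1 of the 10 fast fibre markers had an unadjusted p under 0.05 in edgeR. None of these 10 passed the threshold in edgeR or DESeq2. Mouse 1 at 6 months had a slow fibre sum of 472 CPM and 2.07 CPM of Dio2. Lower sums than that were also found at older ages. They were 351 CPM in mouse 1 and 471 CPM in mouse 2 at 21 months, and 431 CPM in mouse 3 at 15 months. Dio2 in these libraries stood at 4.45, 3.04 and 2.91 CPM. The part of fibre makeup in these results was not tested.

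**Figure D4:**
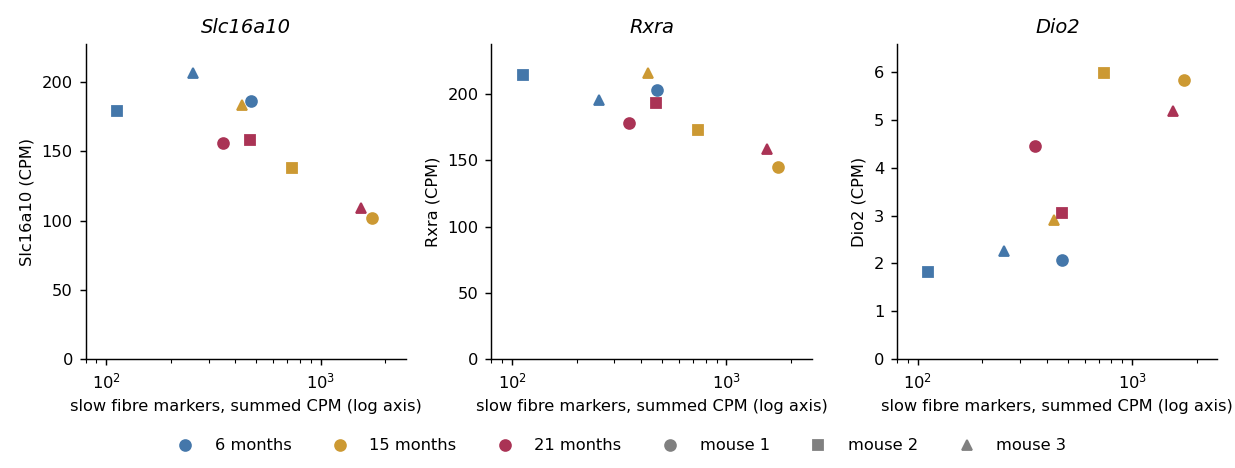
Level of Slc16a10, Rxra and Dio2 in CPM against the summed CPM of 12 slow fibre markers on a log axis, 1 point per library, coloured by age and shaped by mouse number. The 2 libraries with the highest sums, 1748 and 1543 CPM, have the lowest Slc16a10 and Rxra and high Dio2.

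Other cell types were followed by their markers, and the ranges of their summed levels overlapped between 6 months and each older age. Adipocyte markers ran from 176 to 328 CPM at 6 months, from 243 to 401 CPM at 15 months and from 277 to 367 CPM at 21 months, and were highest in the same pair of libraries that was highest in slow fibre markers. This sum was carried by Fabp4, a fatty acid-binding protein also made by capillary endothelium, with a mean of 275 CPM, while the other 5 markers had means of 0.438 to 5.76 CPM. The other 4 tested stood lower at each older age, but each overlapped its 6-month range there. In each of the 4 the highest library was mouse 2 at 6 months, far above the mean of the gene. Smooth muscle and pericyte markers were also highest in the same pair of libraries, at 1193 and 1121 CPM. Of these markers 6 of 6 stood higher at each older age than at 6 months, with 0 past the threshold in edgeR or DESeq2. The part of these cell types in the Dio2 values was not tested. Of the 7 endothelial markers, 3 stood higher and 4 lower at 21 against 6 months, and 5 higher and 2 lower at 15 against 6 months. Among them Emcn, a surface sialomucin named after its value was seen, stood higher without overlap at both older ages. At 21 and 15 against 6 months 7.81% and 6.64% of all genes did so. Its log2 fold change was 0.62 at 21 months (adjusted p = 0.0109 in DESeq2) and 0.50 at 15 months (adjusted p = 0.0987 in DESeq2). Emcn did not pass the threshold in edgeR. Macrophage markers ran from 145 to 224 CPM at 6 months, from 75.2 to 167 CPM at 15 months and from 96.7 to 159 CPM at 21 months, with 7 of 7 lower at each older age and none past the threshold in edgeR or DESeq2.

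The cofactors pull the receptors in opposite directions. Ncor1 (Entrez ID 20185, chromosome 11, 62315663 to 62457414), the corepressor, was the steadiest member, with 136, 145 and 139.8 CPM at 6 months, 135, 133 and 141 CPM at 15 months, and 134, 157 and 129 CPM at 21 months. The groups overlapped, and the log2 fold changes were -0.007 (SE 0.10) at 21 and -0.04 (SE 0.10) at 15 against 6 months, and their direction turned when libraries were scaled by total count. Ncoa1 (Entrez ID 17977, chromosome 12, 4247362 to 4477206), the coactivator, had 59.8, 90.8 and 79.2 CPM at 6 months, 45.4, 72.6 and 65.8 CPM at 15 months, and 67.1, 66.5 and 53.8 CPM at 21 months. The groups overlapped here too. Its log2 fold changes of -0.29 (SE 0.19) and -0.32 (SE 0.19) at 21 and 15 against 6 months became -0.06 (SE 0.14) and -0.007 (SE 0.14) without the 3 libraries that stood apart.

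Counted together, 8 of the 9 genes stood lower at 21 and at 15 than at 6 months, Dio2 being the exception, where 41.2% of all tested genes were lower at both ages and 52.0% and 51.4% at each. The 2 comparisons share the 6-month libraries. The median log2 fold change of the 9 was -0.20 at 21 and -0.19 at 15 against 6 months, beside -0.010 and -0.007 over all genes. It was -0.06 and -0.04 without the 3 libraries that stood apart, and -0.11 in both with total count scaling, where Ncor1 stood above 0 and 7 of 9 were lower and where the median of all genes was 0.07 in both comparisons. Between 21 and 15 months 6 of 9 were lower with a median of -0.006, and 3 of 9 with a median of 0.003 under total count scaling, beside 50.8% of all genes lower in the TMM-scaled fit, and the values of that fit ran from -0.22 for Dio2 to 0.07 for Thrb.

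None of the 9 genes passed an adjusted p of 0.05 in edgeR in any of the 3 comparisons of ages or across all ages. The background of genes called was 0.0153% for 21 against 6 months, 0.00767% for 15 against 6 months, and 0% for the other comparison and across the 3 ages. DESeq2 called 0, 1, 0 and 1 of the 9 in the same order, Dio2 being the call each time, beside 1.53%, 0.874%, 0.023% and 1.56% of all genes. An unadjusted p under 0.05 was given by edgeR to Thra and Dio2 in both comparisons with 6 months and across the ages, that is to 2 of 9, beside 10.6%, 10.3% and 8.55% of all genes. Between the older groups it was 0 of 9, beside 1.82%. DESeq2 added Slc16a10 in both comparisons with 6 months, giving 3 of 9 beside 9.77% and 9.58%. It had 0 of 9 between the older groups, beside 1.43%, and 2 of 9 across the ages, beside 8.42%. Groups did not overlap for 3 lower genes at 21 against 6 months (Thra, Rxra and Slc16a10) and for 2 at 15 against 6 months (Thra and Thrb), beside 8.31% and 7.14% of all genes. For the higher direction the count was 1, Dio2, in both, beside 7.81% and 6.64%. Between the older groups all 9 overlapped, where 3.3% of all genes were lower and 2.84% higher without overlap.

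**Figure D5:**
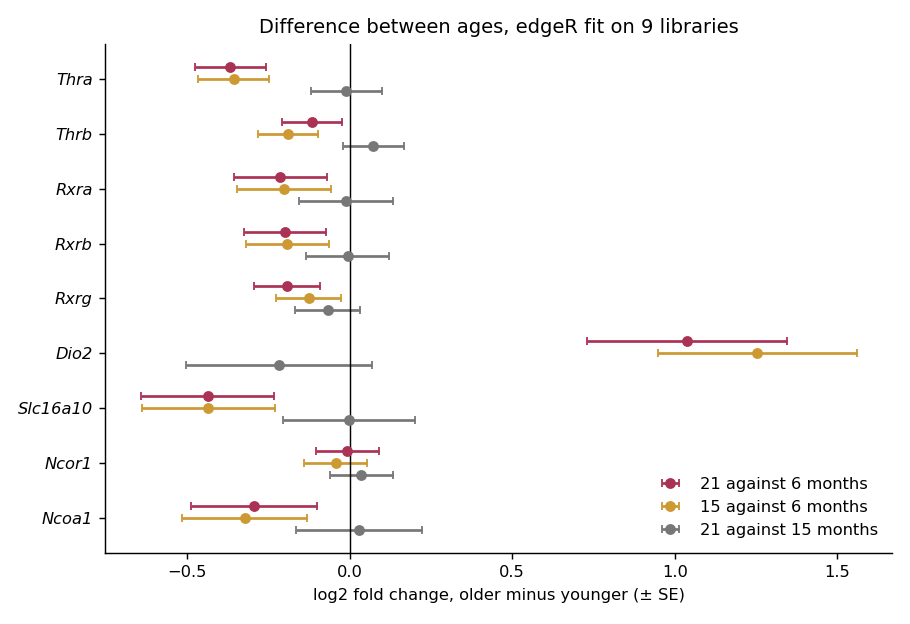
Log2 fold change of each gene with its SE, older minus younger, from the edgeR fit on 9 libraries, for the 3 comparisons of ages. Dio2 lies at 1.04 and 1.25 against 6 months, Thra near -0.36, and the values for 21 against 15 months lie around 0.

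Across libraries, pairs of members were compared by their correlation. Of the 36 pairs, 28 had a positive correlation of log2 CPM over the 9 libraries and 8 a negative one, and all 8 negative pairs included Dio2. Over all 85066446 pairs of tested genes, 49.95% were positive. An r of at least 0.8 in size was found in 6 of the 36 member pairs, or 16.7%, and in 2.36% of all pairs, which were not matched to the members in level, so nothing particular to the members is read from these shares. By exact permutation of Pearson's r, 7 pairs had an adjusted p under 0.05 over the 36 pairs, and by Spearman's rho 0 did. The permutation took the 9 libraries without regard to age. Its p-values therefore do not separate differences between ages from variation within them. The closest pair was Rxra and Slc16a10, with r = 0.92 (exact permutation p = 0.000763, adjusted p = 0.0275) and rho = 0.85 (exact permutation p = 0.00607, adjusted p = 0.0595). Without the 2 libraries farthest from the Rxra median r was 0.73, and with age means removed it was 0.89. Rxra and Dio2 had r = -0.87 (exact permutation p = 0.0029, adjusted p = 0.0405) and rho = -0.85 (exact permutation p = 0.00607, adjusted p = 0.0595). For that pair r was -0.85 without the 2 farthest libraries.

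Thra was paired most closely with Dio2, at r = -0.82 (exact permutation p = 0.00607, adjusted p = 0.0437) and rho = -0.83 (exact permutation p = 0.00827, adjusted p = 0.0595). That value was -0.67 without the 2 farthest libraries and -0.42 with age means removed. Between the receptor genes Thra and Thrb r was 0.59 (exact permutation p = 0.0940, adjusted p = 0.164) and rho 0.47 (exact permutation p = 0.213, adjusted p = 0.295), and r was 0.50 without the 2 farthest libraries and 0.03 with age means removed. The count of 7 pairs fell to 0 without the 3 libraries that stood apart, and also without mouse 1 at 15 months or mouse 3 at 21 months alone. It was 1 with total count scaling.

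The wider pathway was read from lists of other genes. Of 10 other genes that supply or bind the hormone, 8 were in the table and 7 were tested, and 0 passed the threshold in edgeR or DESeq2 in the 3 comparisons, while 0 had an unadjusted p under 0.05 in edgeR at 21 or 15 against 6 months. At 21 against 6 months 5 were lower and 2 higher. The most abundant were Slc3a2, the heavy chain of amino acid transporters that also carry thyroid hormone, whose mean CPM was 47.4 ± 3.33 in the 6-month, 43.1 ± 1.85 in the 15-month and 41.0 ± 4.67 in the 21-month libraries (SD, n = 3), and its light chain partner Slc7a8, at 21.7 ± 5.24, 21.7 ± 10.3 and 20.2 ± 6.09 CPM. Sod3, an extracellular superoxide dismutase and no known hormone carrier although it was in the list, stood at 8.55 ± 1.03, 9.15 ± 2.20 and 10.5 ± 0.984 CPM. Named after its value was seen, Dio3, which inactivates the hormone, had a mean of 0.652 CPM and was at 0 in 1 library.

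Of 17 other receptor cofactors, all tested, 13 stood lower and 4 higher at 21 against 6 months and likewise at 15 against 6 months. The median log2 fold change was -0.11 in both. None passed the threshold in edgeR or DESeq2, and 3 of 17 had an unadjusted p under 0.05 in edgeR in each comparison, beside 10.6% and 10.3% of all genes. Thrap3, a protein linked to receptor-associated complexes and splicing, had a mean CPM of 145 ± 9.01 in the 6-month, 132 ± 2.92 in the 15-month and 122 ± 5.56 in the 21-month libraries (SD, n = 3), without overlap between any of the ages. Of the 17 cofactors, 3, 4 and 1 stood lower without overlap at 21 against 6, 15 against 6 and 21 against 15 months. The shares of all genes were 8.31%, 7.14% and 3.3%. Higher without overlap were 1, 0 and 0 of the 17, beside 7.81%, 6.64% and 2.84%. The log2 fold change of Thrap3 at 21 against 6 months was -0.25 (SE 0.09, adjusted p = 0.347 in edgeR). Cops5, a subunit of the COP9 signalosome, and Prmt1, an arginine methyltransferase, stood at -0.11 (SE 0.12) and 0.06 (SE 0.14).

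Other partners of the retinoid X receptors, 12 nuclear receptor genes of which 10 were tested, had 6 higher and 4 lower at 21 against 6 months, with a median of 0.04. None passed in edgeR or DESeq2, and 1 of 10 had an unadjusted p under 0.05 in edgeR, beside 10.6% of all genes. Nr4a1, an orphan receptor induced by activity, stood at -0.32 (SE 0.22), Nr1h2, a liver X receptor, at 0.07 (SE 0.12) and Ppard, a fatty acid-sensing receptor, at 0.03 (SE 0.13). The list shows both directions. The 3 retinoid X receptor genes themselves each stood below 0 in that comparison, as 52.0% of all tested genes did. Without the 3 libraries that stood apart Rxrb was at 0.010.

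A list of 25 genes was drawn up as responsive to thyroid hormone in muscle, and all were tested. Which way the hormone moves each gene was not taken into account. The counts and medians of this list therefore do not measure hormone response. At 21 against 6 months 12 stood higher and 13 lower, with a median of -0.03. At 15 against 6 months 14 were higher and 11 lower, with a median of 0.22, and between the older groups 20 of 25 were lower, with a median of -0.20. None passed in edgeR. In each comparison with 6 months 5 of 25 had an unadjusted p under 0.05 there, beside 10.6% and 10.3% of all genes. Some of these 5 in each comparison are slow fibre markers as well, so this list and the slow fibre list are not independent. DESeq2 called 1 in each, beside 1.53% and 0.874%. That gene, named after its value was seen, was Hk2, the hexokinase that traps glucose in muscle, which stood at log2 fold changes of 0.57 in the older and 0.79 in the middle age group against 6 months, each with an SE of 0.15. Its adjusted p was 0.198 and 0.194 in edgeR and 0.0165 and 0.000245 in DESeq2. Of the 3 most abundant, Myh4, the fastest myosin, stood at -0.03 (SE 0.26) and Atp2a1, the fast calcium pump, at -0.32 (SE 0.20) at 21 against 6 months. Both are also among the fast fibre markers. Myh1, another fast myosin, varied so widely that its level at 6 months was 1914 ± 1852 CPM.

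The genes with the course most like that of a receptor gene were found by Pearson's r of log2 CPM over the 9 libraries among 9778 genes with a mean of at least 5 CPM. For Thra they were Ankrd11, a chromatin regulator (r = 0.98), Mga, a MAX-binding transcription factor (r = 0.96), and Snx2, a sorting protein of endosomes (r = 0.95). With age means removed r was still 0.97, 0.91 and 0.97. For Thrb they were Cep170, a centrosome protein (r = 0.97), Dcps, a scavenger of messenger RNA caps (r = 0.96), and Slc16a9, a monocarboxylate transporter gene of the same family as Slc16a10 (r = 0.95). The top of so many genes is high by selection, so these values describe the libraries and carry no test. Among the members, Rxrb came closest to Thra (r = 0.70, rank 610) and Ncoa1 to Thrb (r = 0.84, rank 135).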

How the data were processed

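RNA from 9 gastrocnemius muscles, 3 per age, had been extracted with TRIzol, selected with oligo(dT) beads and sequenced from DNA nanoballs, per the labels' protocols. The authors deposited 1 table of estimated counts of reads per gene, not scaled to library size, and the submitters' processing notes name the build mm10. Neither the aligner nor the counter, the annotation or any use of strand was given in the sources used here. Whether the mice of a number share a litter or batch is not stated, and p-values measure the spread between these mice.

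Columns were matched to samples by life stage and number, and 0 columns belonged to other samples. Estimated counts were rounded, filtered with filterByExpr (minimum count 10, leaving 13044 of 17314 genes) and scaled with TMM factors. All 9 libraries were fitted in edgeR 4.0.16 under R 4.3.3 with age as a factor and tested by quasi-likelihood, and p-values were adjusted by Benjamini-Hochberg over all genes tested with a threshold of 0.05. SEs were derived from the fold change and its F statistic. Log2 CPM used a prior count of 0.5. Alternatives were DESeq2 1.42.0, RLE and total count scaling, 2 other filters, a replicate block, the 2 groups alone, and leaving out libraries. The procedure was tested on simulated data. Coordinates and promoters come from RefSeq (GRCm38.p6, the assembly behind mm10, with 17188 of 17314 IDs matched), and exons and transcripts from GENCODE M21. Of the 9 members, 8 had a promoter entry, Thra not being among them. The members, lists and tests were chosen with earlier results of these data known. Named genes were all members, Nr1d1, the 3 most abundant genes of each pathway list with any list gene past the threshold in edgeR, and the 3 genes most like Thra and Thrb in course. Values of 2 list genes are not reported here.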

Additional observations from a re-analysis of the deposited data

How the results depend on the processing

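Of 459 recomputed log2 fold changes of the 9 genes, 430 kept direction and side of the threshold, 28 changed direction and 1, Dio2 at 15 against 6 months in DESeq2 (1.26), passed. With total count scaling Ncor1 stood at 0.076 and 0.032 at 21 and 15 against 6 months, and Rxra, Rxrb and Slc16a10 at 0.0031, 0.0021 and 0.016 at 21 against 15 months. Slc16a10 also stood there at 0.0030 with at least 5 CPM in 3 libraries and at 0.023 with the replicate block. Without the 3 outlying libraries Rxrb stood at 0.010 and Ncor1 at 0.074 at 21 against 6 months, Rxrb at 0.010 at 15 against 6 months, and Thra at 0.022 and Ncoa1 at -0.051 at 21 against 15 months. Leaving out 1 library moved Ncor1 at 21 against 6 months between -0.098 and 0.050, and at 21 against 15 months Thra between -0.10 and 0.055, Rxra between -0.14 and 0.15, Rxrb between -0.041 and 0.034, Slc16a10 between -0.19 and 0.23, Ncor1 between -0.056 and 0.092, Ncoa1 between -0.15 and 0.17 and the Thra to Thrb log2 ratio between -0.21 and 0.0095. The cause was not tested.

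Members called numbered 0 in edgeR under each alternative run, and 1 in DESeq2 at 15 against 6 months and across the 3 ages. Over all genes the count of 2 at 21 against 6 months was 200 with DESeq2, 1 with total count scaling, 30 with no filter, 5 with the replicate block and 0 to 42 without 1 library. The count of 1 at 15 against 6 months was 114 with DESeq2, 0 with total count scaling, the 5 CPM filter, the replicate block or the 2 groups alone, and 0 to 10 without 1 library. The count of 0 at 21 against 15 months was 3 with DESeq2. The count of 0 across ages was 204 with DESeq2, 5 with no filter, 5 with the replicate block and 0 to 10 without 1 library. Leaving out mouse 3 at 6 months gave the highest counts, 42 and 10 and 10. The 7 member pairs became 1 with total count scaling, 0 without the 3 outlying libraries and 0 to 8 without 1 library: 0 without mouse 1 at 15 or mouse 3 at 21 months, 1 without mouse 2 or 3 at 6 months, and 2 without mouse 1 at 6 or mouse 2 at 21 months. Same-numbered mice did not deviate together, with correlations of deviations from -0.38 to 0.38, and matched their own number best in 5 of 18 comparisons. Dio2 rests on 29 to 97 reads per library.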
